A study of Mus musculus with 4 samples.

Results

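Club-like secretory cells were taken here as cells in which 4 secretory genes, Scgb1a1, Scgb3a1, Scgb3a2 and Cyp2f2, together made up at least 3% of the unique molecular identifiers (UMIs, each standing for 1 captured mRNA molecule). Fewer than 4 of the 5 ciliated-cell genes Foxj1, Ccdc153, Fam183b, Cfap126 and Dynlrb2 could be detected in them. With this rule 267 of the 10756 cells that had 500 genes or more and no more than 20% mitochondrial UMIs were members. They were described in 2 kinds, 80 cells with Sftpc under 5% of UMIs (Sftpc-low) and 187 with Sftpc of 5% or more (Sftpc-high). Because the members were chosen by their measured shares of the 4 secretory genes, the ciliated genes and Sftpc, their levels of these 5 genes and every contrast with other cells are descriptions without a test.

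The cells came from Sftpc-creER;Rosa26-mTmG mice. Tamoxifen, given in 4 doses to every group, activates a Cre recombinase driven by the Sftpc promoter and turns on membrane GFP in alveolar type 2 (AT2) cells and their descendants. Mice aged 3 or 12 months then received PBS (collected as day 0) or 0.8 U/kg bleomycin, which injures the lung, into the trachea (collected at day 30). Per the labels, CD45–CD31–GFP+ lung cells were sorted as AT2 cells, 3 mice were pooled per library, and each of the 4 groups is 1 library of the 10x Genomics 3' assay, so that no difference between conditions has a replicate and none was tested. Treatment and day of collection cannot be told apart. Total UMIs were 11381566 in the 3-month PBS library, 14214212 in 12-month PBS, 23379893 in 3-month bleomycin and 36960380 in 12-month bleomycin, with medians of 4555, 5080, 8315.5 and 11760 per cell. Libraries shared 72 barcodes, of which 4 involved a member, and 0 barcodes were members in both of the libraries that shared them.

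Club cells are the secretory cells of the small conducting airways. They release secretoglobins, small dimeric secreted proteins of which Scgb1a1 is the most abundant in the airway lining fluid, and they carry cytochrome P450 enzymes such as Cyp2f2 that metabolise inhaled chemicals. AT2 cells make surfactant, including surfactant protein C from Sftpc, and cells that carry products of both Scgb1a1 and Sftpc are known from the junction of the terminal bronchiole and the alveolus. In mm10 Scgb1a1 lies at chr19:9083636-9087958 on the minus strand and Sftpc at chr14:70520949-70524081 on the minus strand.

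The promoters of 3 genes that separate the cells described here are shown first, as the 250 bases before the annotated start (RefSeq, GRCm38.p6). Scgb3a1 and Cyp2f2 are genes of the rule, and Reg3g, which encodes a secreted antibacterial lectin, was confined to a few of the Sftpc-low cells among the members. Capitals mark matches on either strand to CAAGTG (core of the NK2 homeodomain motif, the family of Nkx2-1), TGTTTNC (forkhead) or TATAAA.
Scgb3a1, chr11:49663345-49663594, plus strand: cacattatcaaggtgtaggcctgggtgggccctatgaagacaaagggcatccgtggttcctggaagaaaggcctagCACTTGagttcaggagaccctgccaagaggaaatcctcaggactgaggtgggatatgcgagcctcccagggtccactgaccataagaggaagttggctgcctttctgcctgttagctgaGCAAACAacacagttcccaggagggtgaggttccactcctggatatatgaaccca
Cyp2f2, chr7:27119705-27119954, plus strand: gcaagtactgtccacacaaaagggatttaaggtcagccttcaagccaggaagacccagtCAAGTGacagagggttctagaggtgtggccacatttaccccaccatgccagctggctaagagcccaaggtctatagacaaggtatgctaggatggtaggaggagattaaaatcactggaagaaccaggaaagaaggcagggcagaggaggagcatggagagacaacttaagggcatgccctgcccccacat
Reg3g, chr6:78468875-78469124, minus strand: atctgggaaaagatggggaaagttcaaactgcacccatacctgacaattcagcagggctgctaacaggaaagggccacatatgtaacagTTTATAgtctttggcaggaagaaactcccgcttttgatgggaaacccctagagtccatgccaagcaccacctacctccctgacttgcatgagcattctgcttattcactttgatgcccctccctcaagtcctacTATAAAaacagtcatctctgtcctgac
The Scgb3a1 window held CAAGTG on the other strand 174 bases before the start and the forkhead letters on the other strand 55 bases before it. The Cyp2f2 window held CAAGTG 191 bases before the start. The Reg3g window held TATAAA on the other strand 161 bases and on the gene's strand 27 bases before the start. Among 32851 windows of the same length, 11.6% held CAAGTG, 17.8% TGTTTNC and 12.4% TATAAA on either strand, so that such matches are common. The motifs were picked after the sequences had been seen, and a match describes letters only. Scgb1a1, Scgb3a2, Sftpc, Cckar and Cd24a had no entry in the promoter table.

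Club-like cells were rare in every library. They numbered 21 of 2394 cells in 3-month PBS (0.877%, exact 95% binomial interval 0.544 to 1.34%) and 76 of 2745 in 12-month PBS (2.77%, 2.19 to 3.45%). After bleomycin they numbered 66 of 2624 at 3 months (2.52%, 1.95 to 3.19%) and 104 of 2993 at 12 months (3.48%, 2.85 to 4.20%). The 3-month PBS share was the lowest, and its interval did not reach those of the other 3 libraries. All intervals in this text are at 95% and cover counting error only, not differences between mice, sorts or libraries.

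The 2 kinds were spread differently over the libraries. Sftpc-low cells numbered 4 of 2394 in 3-month PBS (0.167%, 0.0455 to 0.427%), 10 in 12-month PBS (0.364%, 0.175 to 0.669%), 25 in 3-month bleomycin (0.953%, 0.618 to 1.40%) and 41 in 12-month bleomycin (1.37%, 0.985 to 1.85%). Sftpc-high cells numbered 17 (0.710%, 0.414 to 1.14%), 66 (2.40%, 1.86 to 3.05%), 41 (1.56%, 1.12 to 2.11%) and 63 (2.11%, 1.62 to 2.69%) in the same order. Among club-like cells, the Sftpc-low share was 19.0% (5.45 to 41.9%) and 13.2% (6.49 to 22.9%) in the PBS libraries, against 37.9% (26.2 to 50.7%) and 39.4% (30 to 49.5%) in the bleomycin libraries at 3 and 12 months. Both bleomycin intervals lay above the 12-month PBS interval and overlapped the wide 3-month PBS interval. The sort by GFP sets which cells could be counted, and its part in these shares was not tested.

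**Figure D1:**
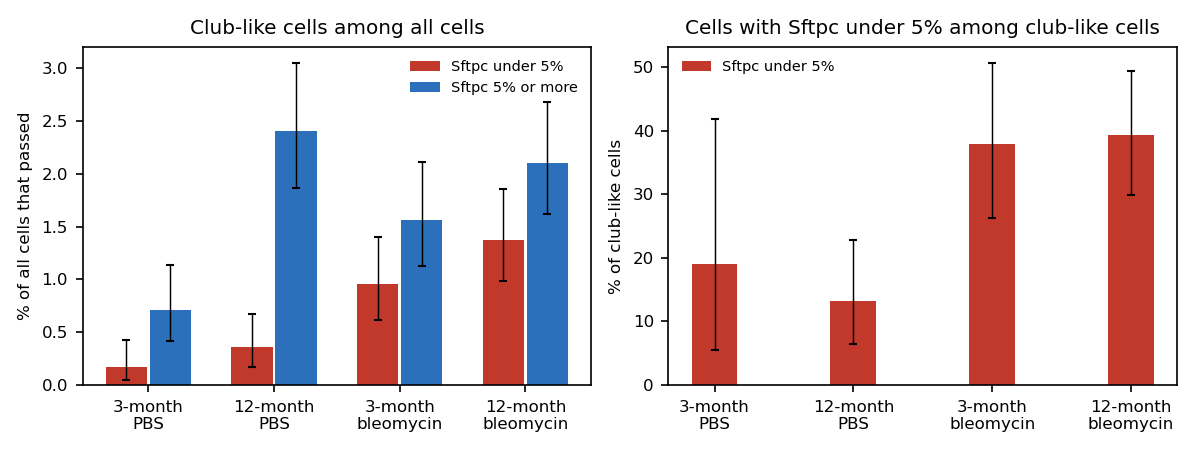
Share of Sftpc-low (red) and Sftpc-high (blue) club-like cells among all cells that passed, left, and of Sftpc-low cells among club-like cells, right, in percent, by library. Error bars are exact 95% binomial intervals. Sftpc-low cells made up 0.167% and 0.364% of cells in the PBS libraries and 0.953% and 1.37% in the bleomycin libraries.

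The amount of secretoglobin mRNA per cell differed widely between the kinds. In Sftpc-low cells Scgb1a1 alone took a median of 42.9% of UMIs (2.41 to 70.0%), and 50 of the 80 cells had 40% or more of their UMIs from the 4 rule genes. In Sftpc-high cells Scgb1a1 took a median of 4.95% (2.98 to 46.6%), and 94 of 187 cells lay between 3 and 5%. Scgb1a1 was the leading gene of the 4 in all 80 and all 187 cells. The median share of the 4 genes in Sftpc-low cells was 58.1% in 3-month PBS, 58.4% in 12-month PBS, 49.5% in 3-month bleomycin and 35.2% in 12-month bleomycin, and in Sftpc-high cells 5.37, 5.16, 4.49 and 4.93%. Sftpc medians were 2.28, 1.84, 1.84 and 1.83% of UMIs in Sftpc-low cells and 13.2, 15.7, 17.7 and 14.9% in Sftpc-high cells.

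The thresholds did not fall in gaps. The lowest member had 3.03% of UMIs from the rule genes and the highest cell outside 2.99%, with 56 members between 3 and 4% and 112 other cells between 2 and 3%. At the Sftpc limit the nearest cells had 5.11% and 4.997%, with 12 members within 2 percentage points on either side. A further 13 cells had 3% or more from the rule genes but showed 4 or more of the 5 ciliated genes, and were left out.

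**Figure D2:**
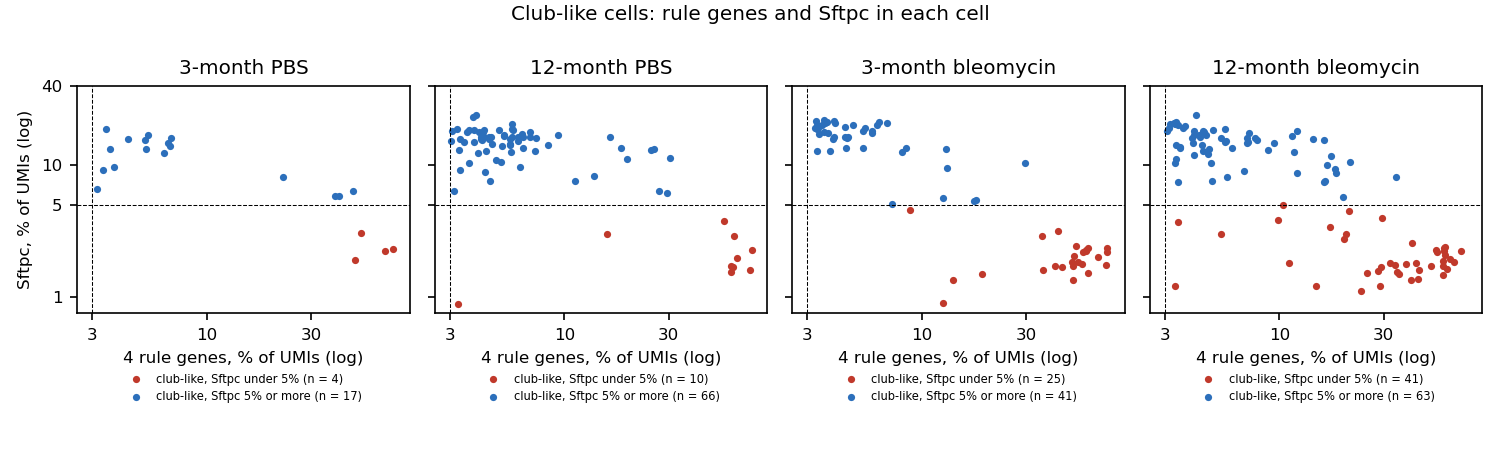
Each point is 1 club-like cell, with the 4 rule genes' share of its UMIs on the x axis and the Sftpc share on the y axis, both in percent on log axes, in 1 panel per library. Dashed lines mark the 3% and 5% limits. Most red points (Sftpc-low) lie far right of the limit while 94 of the 187 blue points (Sftpc-high) lie between 3 and 5%.

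Levels were compared as counts summed over the cells of a kind in a library, and scaled to the same total (CPM). Scgb1a1 reached 542576, 558920, 454731 and 363715 CPM in Sftpc-low cells (3-month PBS, 12-month PBS, 3-month bleomycin, 12-month bleomycin, the order used throughout). In Sftpc-high cells it reached 188824, 79064, 62976 and 82039 CPM. In alveolar cells, the 9433 cells with Sftpc of 5% or more, rule genes under 3% and fewer than 4 ciliated genes, it was 2485, 4954, 3135 and 2829 CPM. Sftpc was 23884, 22100, 20649 and 21911 CPM in Sftpc-low cells, against 112580, 148272, 164262 and 142431 CPM in Sftpc-high cells. Alveolar cells had 133316, 151735, 164187 and 157347 CPM, so that the Sftpc-high values lay near the alveolar ones.

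In summed counts relative to Scgb1a1, Scgb3a1 was lower in Sftpc-high than in Sftpc-low cells, and Cyp2f2 was not. Scgb3a2, another secretoglobin, was 7576, 7074, 16997 and 9472 CPM in Sftpc-low cells and 2249, 123, 350 and 415 CPM in Sftpc-high cells. Scgb3a1, a secretoglobin of the larger airways, was 1771, 5911, 17563 and 6950 CPM in Sftpc-low cells and 7.47, 0, 131 and 46.5 CPM in Sftpc-high cells, where alveolar cells had 10.7, 6.99, 51.5 and 24.0 CPM. Cyp2f2 was 2332, 3268, 4940 and 3751 CPM in Sftpc-low cells and 807, 618, 997 and 932 CPM in Sftpc-high cells. Per 1000 Scgb1a1 UMIs, Sftpc-low cells held 24.8 of Scgb3a1 (24.4 to 25.2) and Sftpc-high cells 0.656 (0.538 to 0.792). Macrophage-marker cells, a reference of which 239 of 313 came from 12-month bleomycin, held 11.2 (8.84 to 14.0). Scgb3a2 per 1000 Scgb1a1 UMIs was 14.0, 12.7, 37.4 and 26.0 in Sftpc-low and 11.9, 1.56, 5.55 and 5.06 in Sftpc-high cells of the 4 libraries, and the 3-month PBS intervals overlapped. Cyp2f2 stood at 9.61 per 1000 Scgb1a1 UMIs in Sftpc-low cells and 10.4 in Sftpc-high cells. The Sftpc-high cells thus carried Scgb1a1 and Cyp2f2 with little Scgb3a1. Most Sftpc-low cells held little Scgb3a1 too. It was under 0.1% of UMIs in 69 of the 80 and at 1% or more in 9, so the Sftpc-low sum does not describe a typical cell.

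Free RNA in droplets gives UMIs of abundant genes in every cell, so cells were also thinned to 2000 UMIs each, which 79 Sftpc-low, 185 Sftpc-high, 9265 alveolar and 305 macrophage-marker cells reached. At that depth the median cell held 906, 102, 5 and 4 Scgb1a1 UMIs in these kinds, and 39, 308, 308 and 25 Sftpc UMIs. In Sftpc the Sftpc-low median of 39 thus lay nearer the 25 of macrophage-marker cells than the 308 of alveolar cells. The macrophage-marker cells were not filtered on epithelial genes and could include alveolar cells. For Sftpa1, a surfactant protein gene, the medians were 16, 57, 59 and 4 UMIs, and for Sftpb 13, 35, 31 and 3. Cyp2f2 was seen in 93.7% of Sftpc-low, 61.6% of Sftpc-high, 12.4% of alveolar and 4.26% of macrophage-marker cells (96.3, 87.7, 31.0 and 15% unthinned). Scgb3a2 was seen in 67.1, 10.8, 5.36 and 4.92% (82.5, 31.0, 19.1 and 25.6% unthinned). Scgb3a1 was seen in 24.1, 3.24, 4.38 and 7.21% (53.8, 18.2, 17.3 and 19.2% unthinned), so that its detection in Sftpc-high cells was near or below that in alveolar and macrophage-marker cells. Cckar, a gene outside the rule, was seen in 11.4% of Sftpc-low and 12.4% of Sftpc-high cells, against 1.03% of alveolar and 0 of 305 macrophage-marker cells (62.5, 41.2, 3.06 and 0.639% unthinned).

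Over all libraries, markers of leukocytes were at similar levels in club-like and alveolar cells. Summed macrophage markers were 98.8 CPM in Sftpc-low, 79.7 in Sftpc-high and 93.8 in alveolar cells, with 14, 15 and 17 of 18 markers seen. By library they were 51.1, 31.6, 56.5 and 148 CPM in Sftpc-low, 7.47, 17.6, 22.9 and 145 in Sftpc-high and 18.9, 44.3, 45.4 and 172 in alveolar cells. Lymphocyte markers summed to 120, 101 and 90.9 CPM, by library to 0, 23.7, 35.6 and 215 CPM in Sftpc-low, 0, 37.7, 47.9 and 168 in Sftpc-high and 27.1, 31.9, 45.7 and 168 in alveolar cells. The 12-month bleomycin library was the highest for both lists in every kind. Of the other lists, endothelial markers summed to 54.0, 88.8 and 137 CPM, and mesenchymal markers to 28.6, 46.5 and 19.1 CPM. In Sftpc-low cells 7 of the 13 mesenchymal genes were seen, and Col1a1, Col1a2, Pdgfra, Pdgfrb, Tagln and Lum were at 0. Basal-cell markers summed to 7.72, 1.02 and 1.52 CPM. In Sftpc-low cells 4 of the 10 basal genes were seen, Krt5, Trp63, Aqp3 and Dapl1, and the rest were at 0. They had 10 counts in all, of which 8 were in 3-month bleomycin. The ciliated list summed to 309, 418 and 474 CPM. Scrublet called 0 of 80 Sftpc-low cells as doublets, which allows a share of up to 3.75%, 1 of 187 Sftpc-high cells and 219 of 9433 alveolar cells (2.32%). Median UMIs per cell were 16097, 11871, 18810 and 13362 in Sftpc-low cells, 6680, 5967, 11780 and 14147 in Sftpc-high cells, and 4559, 5111, 8529 and 12465 in alveolar cells. Gene counts below stayed within 1.5 times of the main ones without the doublet calls, and those in cells thinned to 2000 UMIs are given where they did not.

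As a check of the name, 28 club-cell genes that the rule did not use were counted in each cell at 2000 UMIs. The median was 8 genes in Sftpc-low cells with 20% or more from the rule genes (65 cells), 6 in the 14 of 15 Sftpc-low cells under 20% that had this depth, 5 in Sftpc-high cells and 4 in alveolar cells. Sox2, a transcription factor of the conducting airways, was seen in 22.5% of Sftpc-low, 15% of Sftpc-high and 0.70% of alveolar cells (23.2, 15.8 and 0.989 CPM), and Nkx2-1, the lung epithelial factor, stood at 114, 207 and 253 CPM. At this depth the Sftpc-high cells carried few club-cell genes beyond those of the rule, near the number in alveolar cells. For them the name club-like refers below to the rule alone.

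Sftpc-low cells were compared with alveolar cells within the 2 bleomycin libraries, which had at least 20 such cells each. A gene counted as different when its level was at least 2-fold higher or lower in each library compared, among genes at 50 CPM or more on the higher side. A gene that reached 50 CPM in only a single kind of cell had its direction set by this filter. Of 1971 genes, 60 (3.04%) were higher and 298 (15.1%) lower in the Sftpc-low cells. The rule fixed this contrast, so the counts describe the cells and nothing is read from them. The 5 rule genes took 51.5% and 40.6% of Sftpc-low UMIs in the 3-month and 12-month bleomycin libraries, against 16.7% and 16.0% in alveolar cells, which lowers every other gene on a CPM scale. With those 5 genes left out of the totals, log2 ratios moved by 0.78 and 0.50, and 119 genes were higher and 103 lower of 2474, with 56 and 95 of them shared with the first count. Without doublet calls 60 were higher and 296 lower, and in thinned cells 60 and 249. Ratios below are on the first scale unless stated.

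Enzymes that handle foreign compounds were higher in the Sftpc-low cells, with 12 of 19 genes of the xenobiotic-metabolism list higher and 0 lower, while the lists for ion transport (2 higher, 2 lower of 10), junctions (3 and 2 of 14) and mucosal defence (6 and 11 of 24) held genes on both sides. Gabrp, a subunit of a GABA-gated chloride channel, was 126 CPM against 0.295 in 3-month bleomycin (log2 ratio 8.63, 7.53 to 10.24) and 55.3 against 0.325 in 12-month bleomycin (7.36, 6.37 to 8.59). Aldh1a1, a retinaldehyde dehydrogenase, was 153, 388, 547 and 267 CPM in Sftpc-low cells of the 4 libraries, 14.9, 17.6, 25 and 19.0 in Sftpc-high cells and 1.58, 1.79, 4.92 and 3.54 in alveolar cells. For Aldh1a1 the 3 kinds stood in this order in every library. The PBS libraries held only 4 and 10 Sftpc-low cells, and 3-month PBS only 17 Sftpc-high cells. Cldn10, a claudin of tight junctions at chr14:118787908-118875489, was 366 against 4.33 CPM and 212 against 4.28 CPM in the 2 bleomycin libraries (6.40 and 5.63). Lrrc26, an accessory subunit of potassium channels (6.67 and 5.86), Plpp3, a lipid phosphatase (5.95 and 4.87), and Slc16a11, a monocarboxylate-transporter family member (4.37 and 4.05), were also among the highest ratios. Hp, which encodes the haemoglobin-binding acute-phase protein haptoglobin, was 2247, 3996, 7664 and 6999 CPM in Sftpc-low, 2212, 1318, 1951 and 2049 CPM in Sftpc-high and 561, 741, 797 and 399 CPM in alveolar cells. Retnla, a secreted resistin-like protein, was 153, 404, 6965 and 9447 CPM in Sftpc-low cells, 22.4, 492, 327 and 828 CPM in Sftpc-high cells and 11.4, 285, 57.5 and 418 CPM in alveolar cells. In Sftpc-low cells the 2 bleomycin libraries were far above the 2 PBS libraries for Retnla, the latter from 4 and 10 cells.

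Of the club-cell list outside the rule, 19 of 28 genes reached 50 CPM, of which 15 were higher and 1, Itm2a, lower, with a median log2 ratio of 3.50 against -0.68 over all genes. They included Cyp4b1, a P450 enzyme (4.96 and 5.75), Pon1, a paraoxonase (4.88 and 5.01), Lypd2 (5.73 and 4.82) and Pigr, the receptor that carries IgA to the lumen (4.66 and 2.35). Without the 9 cells rich in Scgb3a1 described below, 13 were higher and 1 lower, with a median of 2.98. Only 10 of the 28 genes reached 50 CPM in alveolar cells of either bleomycin library. The filter therefore set the direction of the other club-cell genes counted here. Over all 28 genes, each with 10 counts or more, the median with every Sftpc-low cell kept was 3.6. The xenobiotic-metabolism list had a median of 1.76, and 7 of its 12 higher genes are also in the club-cell list. Of its 45 genes 12 reached 50 CPM in alveolar cells of either bleomycin library, so that the filter acted on this list too. Fmo2, a flavin monooxygenase (5.60 and 5.17), the glutathione transferases Gstm1 (2.60 and 2.54) and Gsto1 (3.19 and 2.50) and Por, which passes electrons to P450 enzymes (1.87 and 1.65), were higher. Of 17 airway and alveolar transcription factors 3 were higher and 4 lower (median -0.65), or 4 and 2 with the rule genes left out of the totals. Hopx (1.43 and 2.62), Id1 (1.12 and 1.73) and Id3 (1.04 and 2.84) were the higher ones, and Etv5 (-2.62 and -2.11), Foxp1 (-1.97 and -1.46), Irx1 (-2.20 and -1.68) and Irx2 (-2.17 and -1.42) the lower ones.

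AT2 genes were lower in the Sftpc-low cells, though not absent. Of 21 AT2 genes, 20 were lower and 0 higher, with a median of -2.12. With the 5 rule genes left out of the totals 12 were lower, with a median of -1.48. Napsa, the protease that processes surfactant proteins, was 310 against 2388 CPM and 651 against 3098 CPM (-2.94 and -2.25), and the lamellar-body gene Lamp3 stood at -2.37 and -2.46. Sftpb (-1.40 and -1.01) and Abca3, the lamellar-body lipid transporter (-1.41 and -1.37), had smaller ratios. Among the genes with the lowest ratios were Rnase4, a secreted ribonuclease (222 against 1606 CPM and 240 against 1812 CPM), and Il33, an alarmin cytokine (-2.83 and -3.18). Lyz2, lysozyme, was 3166, 3173, 4479 and 11240 CPM in Sftpc-low, 38458, 41350, 52874 and 55202 CPM in Sftpc-high and 24019, 27040, 33469 and 34101 CPM in alveolar cells. The MHC class II genes Cd74 (-2.85 and -1.35) and H2-Aa (-3.51 and -1.59) were lower, in an antigen-presentation list with 1 of 14 genes higher and 7 lower, which became 1 and 1 with the rule genes left out of the totals. The mucosal-defence list was mixed, with 6 higher and 11 lower of 24, and 7 and 5 on the second scale. Reg3g, Tff2, Cp, Hp, Pigr and Retnla were the 6 higher genes. The protease inhibitor Slpi (-1.56 and -2.02) and Lcn2, a siderophore-binding protein (-1.59 and -1.75), were among the lower ones.

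Sftpc-high cells were much closer to alveolar cells. In the 3 libraries with at least 20 of them (12-month PBS, 3-month bleomycin and 12-month bleomycin) 7 of 1762 genes (0.397%) were higher and 8 (0.454%) lower in every library, and 6 and 6 of 2105 with the rule genes left out of the totals, which moved log2 ratios by at most 0.13. In thinned cells 6 were higher and 4 lower. A call here had to hold in 3 libraries, against 2 for Sftpc-low cells, so these counts cannot be set directly beside those. Of 21 AT2 genes 0 were higher and 0 lower (median -0.21, all genes -0.19). Sftpb had log2 ratios of -0.01, 0.22 and 0.02 in the 3 libraries and Lyz2 of 0.61, 0.66 and 0.69. Of the club-cell list 2 of 10 genes at 50 CPM were higher, Cckar and Pon1. The median of these 10 was 0.84, and it was 1.06 over the 26 list genes with 10 counts, against -0.19 over all genes.

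Cckar, the receptor for the peptide hormone cholecystokinin (chr5:53697776-53707705, minus strand), had the highest ratio among genes outside the rule, by the value nearest 0 over the 3 libraries. It was 74.7, 62.8, 104 and 60.2 CPM in Sftpc-high, 102, 55.4, 111 and 86.9 CPM in Sftpc-low and 5.11, 5.20, 3.2 and 5.68 CPM in alveolar cells. Both club-like kinds lay more than 10-fold above alveolar cells in every library for Cckar, and the 2 kinds overlapped each other. In the 3-month and 12-month PBS libraries the Sftpc-low values rested on 6 and 7 counts. The log2 ratios of Sftpc-high over alveolar cells were 3.61 (2.87 to 4.28), 5.03 and 3.42. Cd24a, a glycosylated surface protein of many epithelial cells, was 172, 246, 292 and 212 CPM in Sftpc-high, 119, 150, 228 and 250 CPM in Sftpc-low and 46.9, 48.5, 30.2 and 52.9 CPM in alveolar cells. Again both kinds were above alveolar cells in every library, with 7 and 19 Sftpc-low counts in the 3-month and 12-month PBS libraries. Trf, transferrin, was 351, 414, 2792 and 2410 CPM in Sftpc-high, 375, 142, 1571 and 2462 CPM in Sftpc-low and 133, 229, 499 and 862 CPM in alveolar cells. For Trf the 12-month PBS Sftpc-low value, from 10 cells, lay below the alveolar value. Pglyrp1, a peptidoglycan-binding protein, had log2 ratios of 1.01, 1.19 and 1.38. Creb3l1, a transcription factor anchored in the endoplasmic reticulum (1.55, 2.04 and 0.99), and Cd55, a complement regulator (0.94, 0.97 and 1.01), lay at or near 2-fold in each library.

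The genes lower in Sftpc-high cells included several that alveolar cells carry at a low level. Nrn1, a neuritin, was 20.1, 0 and 13.7 CPM against 112, 71.2 and 142 CPM in alveolar cells. Acoxl, an acyl-CoA oxidase-like gene, had log2 ratios of -1.68, -1.74 and -2.23 and Itih4, an acute-phase inhibitor-chain protein, of -1.43, -1.26 and -2.23. Tspan8, a tetraspanin (-2.27, -1.20 and -1.68), Lgals3, a galectin (-1.14, -1.80 and -1.08), and Slpi (-1.12, -1.53 and -1.35), were lower as well. Slpi was thus lower than in alveolar cells in both club-like kinds.

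**Figure D3:**
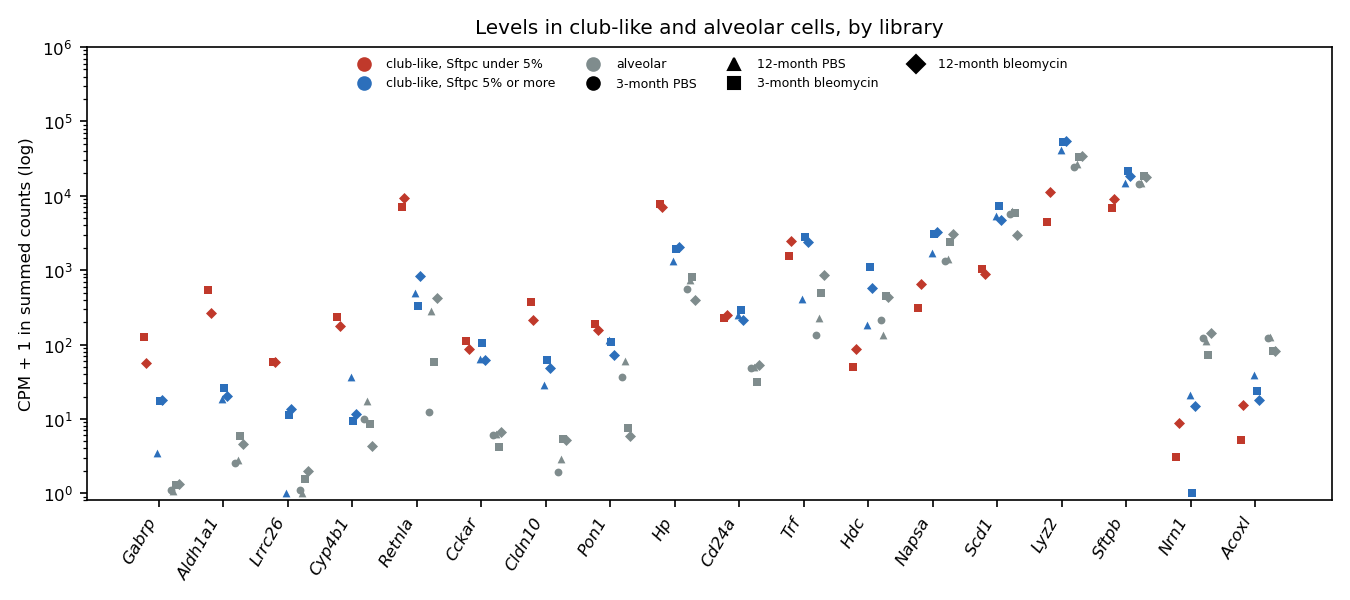
Level of 18 genes in Sftpc-low (red), Sftpc-high (blue) and alveolar cells (grey) as CPM of summed counts plus 1 on a log axis, with 1 point per library and only kinds with at least 20 cells shown. For Cckar, Hp and Cd24a both club-like kinds lie above the alveolar cells, while for Lyz2 and Sftpb the blue points lie with or above the grey points.

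Set against each other in the 2 bleomycin libraries, Sftpc-high cells had 149 of 1682 genes (8.86%) higher and 39 (2.32%) lower than Sftpc-low cells, or 60 and 83 of 2386 with the rule genes left out of the totals. AT2 genes were higher in 19 of 21 (10 on the second scale). The club-cell list had 9 of 18 lower and the xenobiotic list 8 of 19. Hdc, which makes histamine, was 1114 against 48.2 CPM and 572 against 86.9 CPM (4.5 and 2.71). Napsa (3.28 and 2.30) and Scd1, a fatty-acid desaturase (2.84 and 2.38), were higher, and Cyp4b1 (-4.65 and -4.00), Aldh1a1 (-4.40 and -3.78), Retnla (-4.41 and -3.51), Lypd2 (-4.03 and -2.54) and Cldn10 (-2.58 and -2.14) lower. Cckar differed little between the kinds (-0.09 and -0.53).

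The features of Sftpc-high cells were also seen below the 3% limit. All cells with Sftpc of 5% or more and fewer than 4 ciliated genes were placed in 8 bins by their rule-gene share, from under 0.25% to 7% and over (4661, 3528, 792, 347, 105, 94, 43 and 50 cells). Across these bins Cckar was 2.90, 3.59, 6.51, 27.8, 53.9, 64.2, 57.5 and 94.7 CPM, seen in 2.30, 2.47, 3.28, 11.8, 26.7, 38.3, 30.2 and 56.0% of cells. Cckar was therefore already several-fold higher in cells with 1 to 2% of UMIs from the rule genes than in cells under 0.5%. Cd24a was 43.3, 34.7, 60.1, 115, 163, 225, 276 and 229 CPM and Trf 538, 536, 449, 905, 976, 1740, 2112 and 2212 CPM. Nrn1 ran the other way with 123, 108, 112, 84.2, 20.9, 17.3, 2.74 and 6.53 CPM, as did Acoxl with 86.4, 104, 123, 88.9, 38.5, 32.6, 30.1 and 8.16 CPM. Within libraries Cckar went from the lowest to the highest bin from 3.95 to 114 CPM in 3-month PBS, 5.18 to 121 in 12-month PBS, 1.69 to 144 in 3-month bleomycin and 2.52 to 71.3 in 12-month bleomycin. The highest bin held 4, 14, 9 and 23 cells in these libraries.

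Cldn10 and Scgb3a2 were highest in the bin with the most secretoglobin. Cldn10 was 3.13, 3.18, 3.57, 8.34, 6.60, 23.5, 19.2 and 118 CPM across the bins. Scgb3a2, itself part of the share, was 24.6 CPM in the lowest bin, 104 at 3 to 5%, 49.3 at 5 to 7% and 1291 at 7% and over. Sftpb was level, at 17219 CPM in the lowest and 17294 CPM in the highest bin. For Cckar, Cd24a, Nrn1 and Acoxl the change across the bins thus began below the 3% limit. Sums per bin cannot tell a gradient within cells from a changing mix of 2 sets of cells, and this was not tested.

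**Figure D4:**
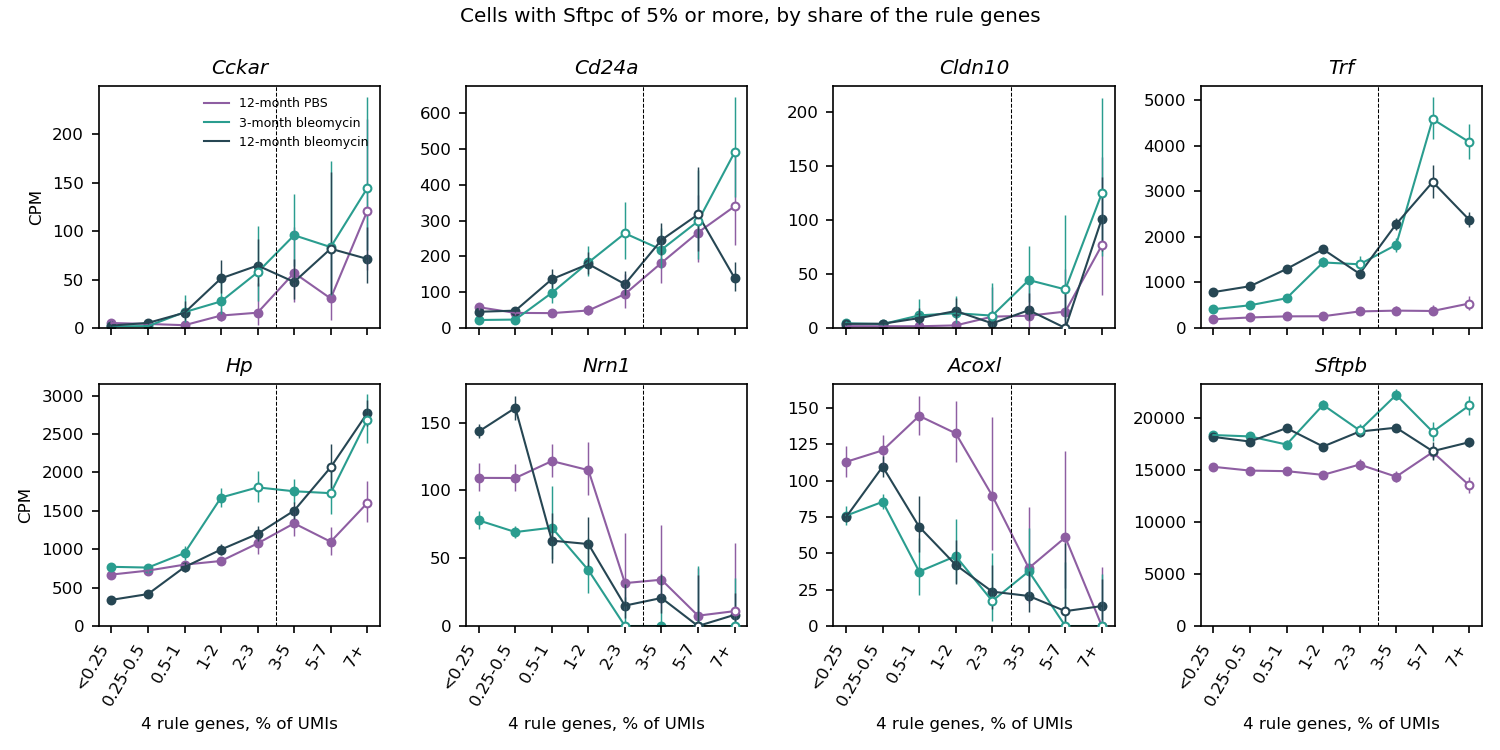
CPM of 8 genes in cells with Sftpc of 5% or more, binned by the rule genes' share of UMIs, in 3 libraries, with exact 95% Poisson intervals as vertical lines. Open points are bins under 20 cells, and the dashed line is the 3% limit. Cckar, Cd24a and Trf are higher and Nrn1 and Acoxl lower from left to right, with Cckar and Nrn1 already different at 1 to 3%, while Sftpb is level.

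Among Sftpc-high cells, the 50 with 7% or more from the rule genes (4, 14, 9 and 23 per library) were set against the 94 under 5%. This split and those of the next paragraphs were chosen after the values had been seen. Scgb3a2 was 1291 against 104 CPM (3.63), though seen in only 18 of the 50 cells. Cldn10 was 118 against 23.5 CPM (2.30) and Hes1, a Notch target, 377 against 165 CPM (1.19), and Pon1 had a log2 ratio of 1.30. Hp (0.82) was also higher. Sftpc was lower by a log2 ratio of -0.52, and Bex2 (-1.65) and Hmgcs1, of cholesterol synthesis (-1.31), were lower too.

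The Sftpc-low cells were not uniform. In 9 of them, 1, 1, 4 and 3 per library, Scgb3a1 made up 1% or more of UMIs, and in 69 it was under 0.1%. Reg3g, whose promoter is shown above, had 210 counts in the 9 cells (7 of 9 cells) and 1 count in the 69. By library Reg3g had 4, 18, 91 and 98 counts over all Sftpc-low cells, where the 98 came from 2 of 41 cells, and 0 counts in Sftpc-high cells of every library. Bpifb1, a secreted protein of the larger airways, had 84 against 4 counts (8 of 9 and 2 of 69 cells). The mucin Muc5b had 58 against 1, the trefoil protein Tff2 112 against 6, Ltf, lactoferrin, 193 against 25 and Gp2 25 against 0. Of the goblet and mucin list 6 of 9 genes with 10 or more counts were higher, with a median log2 ratio of 4.40, where 615 of all 6092 genes with 10 counts (10.1%) were higher and the median was -0.08. The 10 counts were taken over both sides. Muc5b, Tff2 and Gp2 reached them only through the 9 cells, so that the filter set their direction. Chia1, an acidic chitinase (-2.87), was lower in the 9 cells, and Id3 had 0 counts against 73. Sftpc did not separate them (-0.07).

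A second split set the 39 Sftpc-low cells with Scgb3a2 at 0.5% or more (2, 5, 17 and 15 per library) against the 31 with Scgb3a2 under 0.1% (1, 4, 6 and 20). Chad, chondroadherin, was 119 against 17.8 CPM (2.66, in 27 of 39 and 4 of 31 cells), and Lypd2 (2.30) and Aldh1a1 (1.39) were higher in the Scgb3a2-rich cells. Reg3g, Tff2 and Bpifb1 had 0 counts in the 31 cells. The AT1 gene Ager was 508 against 2222 CPM (-2.13) and Hopx, also of AT1 cells, was lower (-2.03). In the AT1 list 8 of 10 genes were lower in the Scgb3a2-rich cells, in the transitional alveolar list 8 of 13 and in the p53 and senescence list 9 of 14, where 1041 of all 5749 genes with 10 counts (18.1%) were lower and the median was -0.45. The 31 cells came mostly from 12-month bleomycin, so that the part of the library in these ratios cannot be told apart from the split.

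With bleomycin, Sftpc-low cells of 12-month mice (41 cells) were set against those of 3-month mice (25 cells). Interferon-response and antigen-presentation genes were higher at 12 months. Of 1626 genes 162 (9.96%) were higher and 36 (2.21%) lower. With the rule genes left out of the totals, which moved log2 ratios by -0.29, 172 were higher and 212 lower of 2880. In cells thinned to 2000 UMIs, 412 were higher and 338 lower. The median of the interferon-response list was 2.76 over the 21 of its 30 genes with 10 counts, against 0.32 over all genes at 50 CPM. Its 8 genes at 50 CPM had a median of 3.54 (3.25 on the second scale), but 6 of them reached 50 CPM at 12 months alone, so that their direction was set by the filter. Of 19 antigen-presentation genes 16 were higher (median 2.01, and 15 with a median of 1.72), of which 10 reached 50 CPM at 12 months alone, and 8 of the 9 at 50 CPM in both libraries were higher. Markers of leukocytes, which also carry MHC class II, were higher at 12 months in the same cells, with macrophage sums of 148 against 56.5 CPM and lymphocyte sums of 215 against 35.6 CPM. When cells with 5 or more counts over these 2 lists were left out, an alternative chosen after the values had been seen, 22 and 23 cells remained. The interferon median was then 2.30 over 21 genes and the antigen-presentation median 2.21, while 523 of 1913 genes were higher and 46 lower and the median of all genes was 0.61. Ifi27l2a, an interferon-induced gene, was 936 against 18.9 CPM (5.56, 4.70 to 6.77). Irf7, an interferon regulatory factor, was 99.6 against 10.5 CPM (3.12). Isg15, a ubiquitin-like interferon-induced protein, was 275 against 14.7 CPM (4.13) and 0 in both PBS libraries. H2-Eb1, of MHC class II, was 221 against 10.5 CPM (4.27), H2-Q7, of the MHC class I family, 220 against 10.5 CPM (4.26), B2m, the class I light chain, 3579 against 645 CPM (2.47), and Cd74, the class II invariant chain, 4440 against 1011 CPM (2.13). In PBS libraries Cd74 was 579 and 1353 CPM. Of 10 transitional alveolar genes 5 were higher, among them Sfn (2.25), Krt7 (1.49) and Cdkn1a, the cell-cycle inhibitor p21 (1.11). Among the 10, 2 reached 50 CPM at 12 months alone, and 3 of the 8 at 50 CPM in both libraries were higher.

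The same comparison had secretory and defence genes that were lower at 12 months. Of the club-cell list 8 of 24 were lower and 0 higher (median -0.29), and of the mucosal-defence list 3 were higher and 8 lower of 26. Of these, 6 club-cell and 5 mucosal-defence genes reached 50 CPM at 3 months alone, so that the filter set their direction. At 50 CPM in both libraries, 3 of 17 club-cell genes were lower and 0 higher, and 3 of 21 mucosal-defence genes were higher and 3 lower. Saa3, serum amyloid A, was 20.5 against 1011 CPM (-5.57), Ltf 41.1 against 404 CPM (-3.27), and Cfb, complement factor B (-2.34), Bpifb1 (-2.05) and Scgb3a1 (-1.34) were lower. Muc5b had 1 count at 12 months against 56 at 3 months. Chia1 ran the other way with 1015 against 191 CPM (2.41). The lower genes turned on few cells. Without the Scgb3a1-rich cells, 4 at 3 months and 3 at 12 months, Ltf had a log2 ratio of 0.68, Cfb of 0.22 and Scgb3a1 of 0.81, the mucosal-defence list had 5 higher and 3 lower, and 173 genes were higher and 23 lower in all. Without them the interferon median was 3.68 over the 8 genes at 50 CPM.

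Sftpc-high cells (63 at 12 months, 41 at 3 months, both with bleomycin) had 86 of 2013 genes (4.27%) higher and 25 (1.24%) lower at 12 months. In thinned cells 262 were higher and 255 lower. The interferon-response median was 3.24 over the 23 genes with 10 counts, and 3.74 over the 11 at 50 CPM, of which 10 reached that level at 12 months alone. Of 21 antigen-presentation genes 18 were higher (median 1.53), with 8 of the 11 at 50 CPM in both libraries. Of 11 transitional genes 5 were higher (0.85), with 2 of the 7 at 50 CPM in both libraries, and 4 reached that level at 12 months alone. Macrophage sums were 145 against 22.9 CPM and lymphocyte sums 168 against 47.9 CPM in these cells. Without the 28 of 63 cells at 12 months that had 5 or more such counts, and 0 of 41 at 3 months, the interferon median was 3.48 over 23 genes and the antigen-presentation median 1.39, with 90 genes higher and 41 lower of 2015. Ifi27l2a was 1220 against 8.33 CPM (7.02, 5.83 to 9.07), and in the PBS libraries 120 and 52.7 CPM at 3 and 12 months. Ly6i, a surface protein of the Ly6 family (526 against 18.7 CPM, 4.74), and the chemokine Cxcl1 (167 against 8.33 CPM, 4.16) were higher, and Ccl20, another chemokine, was 190 CPM against 0 counts. Bex2 was lower (15.9 against 133 CPM, -3.04). Alveolar cells of the same 2 libraries had 54 of 2173 genes (2.49%) higher and 13 (0.598%) lower, with an interferon median of 3.03 over 30 genes with 10 counts. In these alveolar cells 10 of 19 antigen-presentation genes (1.32) were higher, with 5 of the 13 at 50 CPM in both libraries. Their macrophage sums were 172 against 45.4 CPM and lymphocyte sums 168 against 45.7 CPM, and without cells of 5 or more such counts the medians were 2.99 and 1.34. The medians of both lists were thus above 1 in all 3 kinds of cell, with leukocyte markers higher at 12 months in each, and whether their size differs between kinds was not tested.

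**Figure D5:**
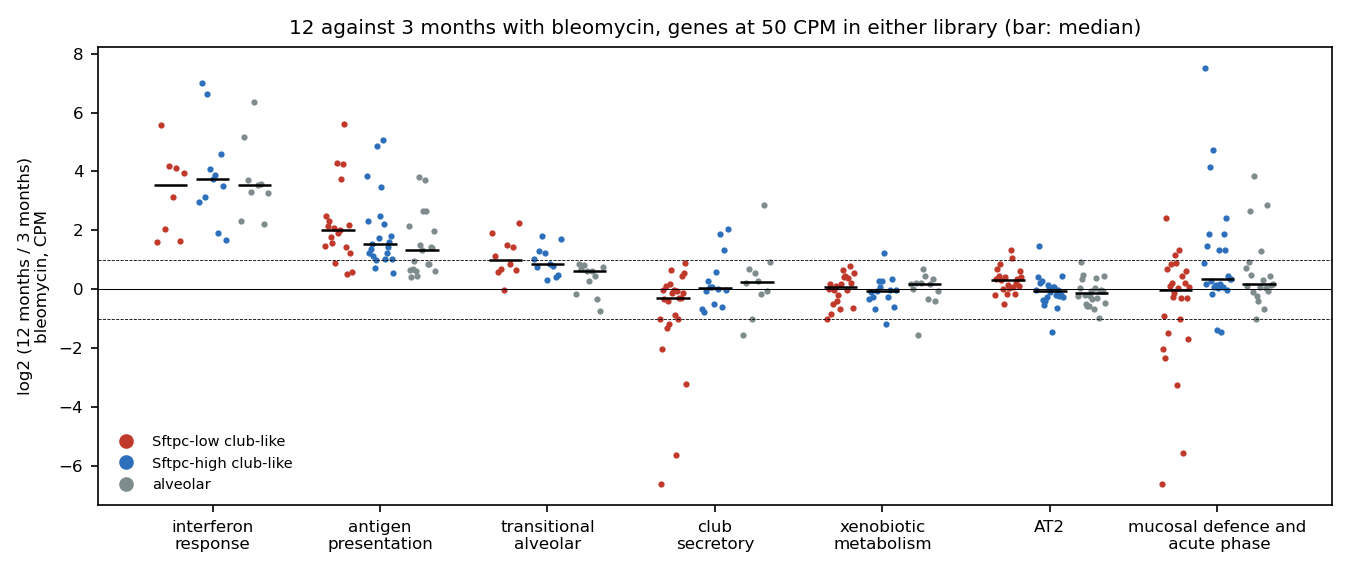
Log2 ratio of 12-month over 3-month CPM with bleomycin for genes of 7 lists at 50 CPM or more in either library, in Sftpc-low club-like (red), Sftpc-high club-like (blue) and alveolar cells (grey), with black bars at the medians and dashed lines at 2-fold. Points of genes with 0 or few counts on 1 side rest on an added 0.5 counts and are not bounds. Interferon medians are 3.54, 3.74 and 3.54 in the 3 kinds. Of these interferon genes 6 of 8, 10 of 11 and 8 of 9 reached 50 CPM at 12 months alone, so that the filter set their direction.

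Bleomycin (day 30) and PBS (day 0) could be set against each other only in Sftpc-high cells at 12 months, with 63 and 66 cells. Transitional alveolar genes were higher after bleomycin. Of 2087 genes 189 (9.06%) were higher and 108 (5.17%) lower, and in alveolar cells of the same libraries 174 (7.73%) and 91 (4.04%) of 2251. In thinned Sftpc-high cells 372 were higher and 293 lower. Of the transitional alveolar list 9 of 11 were higher (median 1.49), against 8 of 11 (1.5) in alveolar cells. Of these 11, 7 reached 50 CPM after bleomycin alone in Sftpc-high cells and 5 in alveolar cells, so that the filter set their direction. Among those at 50 CPM in both libraries 3 of 4 were higher in Sftpc-high cells and 4 of 6 in alveolar cells. Clu, the secreted chaperone clusterin, was 596 against 22.6 CPM (4.64, 3.79 to 5.86), the keratin Krt8 292 against 103 CPM (1.49) and Cdkn1a 177 against 40.2 CPM (2.10). The epidermal growth factor receptor ligands Areg (2.89) and Hbegf (2.98) were higher. The interferon-response median was 3.40 over the 23 genes with 10 counts. It was 4.32 over the 11 at 50 CPM, or 3.57 with the 2 genes at 0 counts in PBS set at a floor of 3 counts, and 10 of the 11 reached 50 CPM after bleomycin alone. Of 21 antigen-presentation genes 17 were higher (1.24), with 10 of the 14 at 50 CPM in both libraries. Alveolar cells had an interferon median of 3.47 over 30 genes. In them 14 of 19 antigen-presentation genes (1.09) were higher, with 9 of the 14 at 50 CPM in both libraries. Leukocyte markers were higher after bleomycin too, with macrophage sums of 145 against 17.6 CPM and lymphocyte sums of 168 against 37.7 CPM in Sftpc-high cells, and 172 against 44.3 CPM and 168 against 31.9 CPM in alveolar cells. Without cells of 5 or more such counts the Sftpc-high medians were 3.54 for interferon and 1.2 for antigen presentation, and 9 of 11 transitional genes were higher (1.44).

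Genes lower after bleomycin in these Sftpc-high cells included Bex4 (16.9 against 404 CPM, -4.54) and Bex2 (15.9 against 369 CPM, -4.50), small adaptor-like proteins, and Apoe, apolipoprotein E (205 against 821 CPM, -2.0). Bex2 stood at -3.57 in alveolar cells. Chia1 was 285 against 1107 CPM (-1.96), and Cyp2b10, a P450 enzyme, had log2 ratios of -2.72 in Sftpc-high and -3.16 in alveolar cells. Cst8, a cystatin, was lower in both as well (-3.75 and -3.23). Lcn2 (2.62) and Lrg1, an acute-phase glycoprotein (2.26), were higher in the Sftpc-high cells. Sftpc-low cells had 4 and 10 cells in the PBS libraries, and no ratio was computed for them.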

How the data were processed

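The deposited values are UMI counts for 27998 genes in each barcode. The authors used Cell Ranger, whose version is not given in the sources used here, and Seurat 3.2.2 with mm10, per the submitters' processing notes, and the deposited counts are whole numbers with no normalization found. From these counts, 10756 of 10911 barcodes passed 500 genes and 20% mitochondrial UMIs. Counts were summed per kind and library as CPM. Log2 ratios used a prior of 0.5 counts, with exact binomial or Poisson 95% intervals, and no test was made, since each group is 1 library of 3 pooled mice. Comparisons needed 20 cells of a kind. Named genes were the 12 highest and 12 lowest with an interval excluding 0, seen in 20% of cells on the higher side at 50 CPM, leaving out ribosomal, mitochondrial and predicted genes, beside members of 24 gene lists. The members and lists were chosen with earlier results of these data known. For 5 list genes (Cebpd, Hes4, Ighm, Igkc, Trbc1) nothing was analysed here. Macrophage-marker cells (313, with 10 or more marker counts) replaced, after the data were seen, a planned reference of 3 marker counts that took in alveolar cells. The 313 were not filtered on epithelial genes, and cells that also met the alveolar limits were not left out. Doublets were scored with Scrublet and kept. The computation was tested on simulated data. Python 3.11.15, numpy 2.4.6, scipy 1.17.1, pandas 2.3.3, scanpy 1.11.5 and matplotlib 3.10.9 were used.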

Additional observations from a re-analysis of the deposited data

Results flagged for a closer look

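With bleomycin, 3 genes stood on opposite sides in the 2 kinds of club-like cell when 12 months was set against 3 months. The difference between kinds was not tested, as each side is 1 library. Pigr had a log2 ratio of -1.03 in Sftpc-low cells (98.0 against 201 CPM) and 1.86 in Sftpc-high cells (116 against 31.2 CPM). Cp, ceruloplasmin, had -1.49 (133 against 375 CPM) and 1.87 (79.3 against 20.8 CPM). Saa3 had -5.57 (20.5 against 1011 CPM) and 2.41 (82.4 against 14.6 CPM). Without the Sftpc-low cells rich in Scgb3a1 the Sftpc-low ratios were -0.05 for Pigr (-0.67 to 0.61), -0.44 for Cp (-0.93 to 0.07) and -0.90 for Saa3 (-2.10 to 0.26). The Saa3 counts came from few cells, 6 of 25 Sftpc-low cells at 3 months, where 1 cell gave 49.1% of 483 counts, and 13 of 63 Sftpc-high cells at 12 months, where 1 cell gave 62.8% of 78 counts.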

How the results depend on the processing

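The share of club-like cells in the 4 libraries (0.877, 2.77, 2.52 and 3.48%) depends by construction on the threshold. At 2% it was 1.59, 4.15, 3.28 and 4.71%. At 5% it was 1.60% in 12-month PBS, 1.60% in 3-month bleomycin and 2.31% in 12-month bleomycin, and at 10% 0.334, 0.692, 1.14 and 1.74%. The Sftpc-low share of members was 4.76, 19.7 and 23.1% with the Sftpc limit at 2% (3-month PBS and the 2 bleomycin libraries), and 52.4, 25 and 50% with it at 10% (the 2 PBS libraries and 12-month bleomycin). It was 59.5 and 56.5% in the bleomycin libraries with the rule at 5%, and 50, 47.4, 80 and 71.2% in the 4 libraries with it at 10%. Of 52 alternative shares 29 stayed within the interval.

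Counts of genes past 2-fold moved with the genes admitted. With a minimum of 10 counts in place of 50 CPM they were 479 higher and 1293 lower for Sftpc-low against alveolar cells, 61 and 57 for Sftpc-high against alveolar, 377 and 87 for Sftpc-high against Sftpc-low, 703 and 333 for Sftpc-low at 12 against 3 months, 569 and 345 for Sftpc-high at 12 against 3 months, and 896 and 581 for bleomycin against PBS. With a minimum of 100 CPM they were 153 lower, 2 lower, 87 and 25, 72 and 18, 52 and 6, and 85 and 59 in the same order. With the rule genes left out of the totals they were 119 and 103, 60 and 83, 212 lower (Sftpc-low by age) and 43 lower (Sftpc-high by age). Cells thinned to 2000 UMIs gave 4 lower (Sftpc-high against alveolar), 412 and 338, 262 and 255 (by age, Sftpc-low and Sftpc-high), and 372 and 293 (by treatment). Every cell weighing the same gave 57 and 39 lower by age. Without the Scgb3a1-rich cells 23 were lower in Sftpc-low cells by age, and with the Sftpc limit at 10% 39 in Sftpc-high cells by age. Without cells of 5 or more macrophage or lymphocyte counts, by age, 523 were higher in Sftpc-low and 41 lower in Sftpc-high cells. Of 118 such counts 77 stayed within 1.5 times.

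Of 1719 list medians, 5 whose main value was at least 2-fold changed sign, and sign changes of smaller medians were not counted. The proliferation list, Sftpc-low against alveolar, went from -1.12 to 0.67 and the macrophage list, Sftpc-low by age, from 1.03 to -0.71 in thinned cells. In Sftpc-high against alveolar cells with every cell weighing the same, the neuroendocrine and tuft list went from 1.11 to -1.29, the lymphocyte list from 1.13 to -0.29 and the mesenchymal and mesothelial list from 1.09 to -1.87. Of 1989 values of named genes 5 changed sign, all in Sftpc-low cells by age: Bpifb1 from -2.05 to 0.18 and Msmo1 from -1.33 to 0.13 in thinned cells, and Ltf to 0.68, Cfb to 0.22 and Scgb3a1 to 0.81 without the Scgb3a1-rich cells. The cause was not tested. Sftpc-low comparisons with the Sftpc limit at 2%, Sftpc-high comparisons with the rule at 10%, and club-like comparisons without cells holding 2 or more leukocyte or stromal UMIs were not run, as under 20 cells were left. Alveolar cells without them had 53 higher and 10 lower of 2175 by age and 134 and 70 of 2222 by treatment. No paired analysis was possible because each group is 1 library. The PBS libraries hold 14 Sftpc-low cells, and depth per cell limits detection of genes under about 50 CPM there.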
